A study of Mus musculus with 12 samples.

Results

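Transcripts of the choroid plexus were examined in astrocytes sorted from the developing mouse cerebellum. The 10 genes are Ttr, Prr32, Folr1, Kl, Clic6, Aqp1, Kcne2, Slc4a5, F5 and Otx2, taken by symbol from the 24421 entries of the deposited table, and all 10 were among the 15464 genes tested. They were selected on measured values of these libraries, because Ttr differed strongly between libraries of one age and because Ttr and Prr32 had risen between P1 and P7. Those features are therefore given as descriptions.

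The libraries came from cerebellum of Aldh1l1-GFP mice of both sexes, and no other allele or treatment is named. Green fluorescent protein (GFP) is made in these mice under the promoter of Aldh1l1, a folate enzyme of astrocytes, and the GFP-positive cells were collected by flow sorting at postnatal day 1 (P1), 7 (P7), 14 (P14) and 28 (P28), with 3 libraries per age and 12 in all. Values are counts that the authors divided by one size factor per library, called normalized counts here. Between 6399499 and 14733985 reads per library fell on genes. The labels call the 3 libraries of an age replicates without saying that they came from separate animals, so p-values measure the spread between these libraries, which may be technical.

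The choroid plexus is a sheet of epithelial cells around a vascular core that hangs into each brain ventricle, the fourth ventricle beneath the cerebellum included. Its epithelium makes cerebrospinal fluid by moving ions and water from blood to ventricle, carries folate and hormones across, and secretes proteins, of which transthyretin (the product of Ttr) is the best known. Within the brain Ttr is a classical marker of this epithelium, and elsewhere it is made in large amounts by the liver. Otx2 is a homeobox transcription factor needed for the choroid plexus to form, and it is also made by precursors of granule neurons in the young cerebellum.

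Ttr went from a minor transcript at P1 to one of the most abundant at P7. Its normalized count was 685, 289 and 221 in the 3 libraries of P1, in the order of their replicate numbers, and 60055, 125927 and 47082 at P7. At P14 it was 107436, 62320.2 and 796, and at P28 it was 102429, 179566 and 17368. The P1 and P7 libraries did not overlap, while P14 replicate 3, at 796, lay just above the P1 libraries and P28 replicate 3 lay below every P7 library. As a share of all reads on genes, Ttr took 0.00254% to 0.00756% at P1 and 0.536% to 1.504% at P7, where it was the 3rd most abundant gene in each library. At P14 its share was 1.06%, 0.598% and 0.00774%, and at P28 it was 0.880%, 1.48% and 0.138%, so that it ranked 5th, 8th and 2707th at P14 and 5th, 4th and 62nd at P28. The highest P14 library held 135 times the Ttr of the lowest, against 10.3 times at P28, 2.67 times at P7 and 3.10 times at P1. In bulk RNA, fewer cells of a type and less RNA per cell cannot be told apart.

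**Figure D1:**
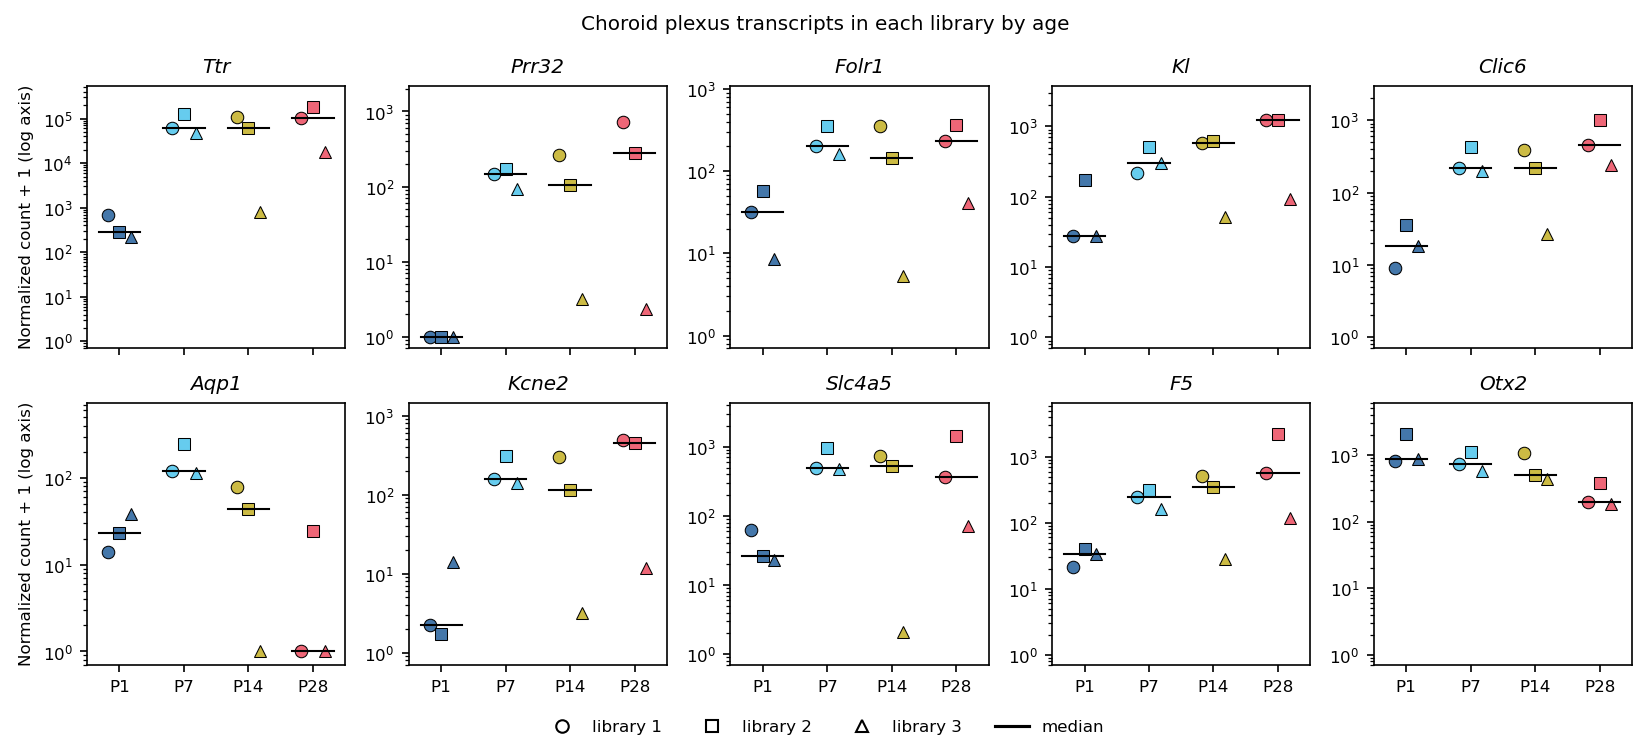
Normalized count plus 1 (log axis) of the 10 genes in the 12 libraries, by age; symbols mark the replicate number, colours the age and lines the median of 3 libraries. Replicate 3 of P14 and of P28 (triangles) lies lowest at its age for every gene but Aqp1, which was listed at 0 in P28 replicates 1 and 3, and Otx2 moves far less than the others.

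The same pair of libraries stood apart for most of the other members. In 8 of the 9 members beside Ttr, P14 replicate 3 was the lowest library of P14 and P28 replicate 3 the lowest of P28, and in the same 8 genes P7 replicate 2 was the highest library of P7. Aqp1 was the exception, because 2 libraries of P28 were listed at 0. Of the 15464 genes tested, 11.5% were lowest in both of these libraries and 4.16% also highest in P7 replicate 2. Neither library was shallow, with 9470510 reads in P14 replicate 3 and 9337259 in P28 replicate 3, and both correlated with the libraries of their age about as well as those did with each other (r of 0.898 to 0.899 for P14 replicate 3 against 0.913 between replicates 1 and 2; 0.849 to 0.858 for P28 replicate 3 against 0.862). P7 replicate 2 was the shallowest library, with 6399499 reads. The members' steps and slopes, the slopes of the gene lists and the fit at equal Ttr are given below also without P14 replicate 3 and without replicate 3 of both P14 and P28.

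The secreted and membrane-bound members are the products by which the epithelium acts on the fluid. Ttr (chr18:20665280-20674321 on GRCm38, plus strand) carries thyroid hormone and retinol-binding protein. F5 (chr1:164151838-164220277, plus strand) encodes coagulation factor V. Its normalized counts were 20.3, 38.6 and 32.6 at P1, 248, 309 and 163 at P7, 519, 352 and 27.1 at P14, and 566, 2223 and 116 at P28. Apart from P14 replicate 3, every library after P1 was above all of P1, and P28 replicate 2 alone held more than the other P28 libraries together. An antisense long noncoding RNA, Gm16548, shares exon sequence with F5, and whether the counting used strand is not given in the sources used here. Kl (chr5:150952607-150993817, plus strand) encodes klotho, a co-receptor for fibroblast growth factor 23 that is also shed into the fluid. It ranged from 26.5 to 174 at P1 and from 216 to 505 at P7. In replicates 1 and 2 it stood at 572 and 626 at P14 and at 1251 and 1222 at P28, whereas replicate 3 had 51.0 and 93.3 at these ages. Folr1 (chr7:101858331-101870788, minus strand) encodes the folate receptor that carries folate into cerebrospinal fluid. It had 30.8, 57.2 and 7.57 at P1, 203, 353 and 159 at P7, 349, 142 and 4.34 at P14, and 229, 362 and 40.6 at P28. For Folr1 too, the P1 and P7 libraries were separate and both low libraries lay in or below the P1 range.

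Of the channels and transporters, Slc4a5, Kcne2 and Clic6 were also higher in every P7 library than in every P1 library. Slc4a5 (chr6:83219828-83304945, plus strand) encodes a sodium bicarbonate cotransporter of the apical membrane. It had 62.1, 25.7 and 22.0 at P1, 493, 951 and 471 at P7, 735, 524 and 1.09 at P14, and 358, 1447 and 70.3 at P28. The value of 1.09 in P14 replicate 3 is a single read. Kcne2 (chr16:92292389-92298129, plus strand), an accessory subunit of potassium channels, was between 0.714 and 12.9 at P1 and between 141 and 311 at P7. It then had 299, 113 and 2.17 at P14 and 487, 451 and 10.8 at P28. Clic6 (chr16:92485736-92541243, plus strand), an intracellular chloride channel protein on the same stretch of chromosome 16, was between 8.00 and 35.0 at P1, between 195 and 423 at P7, 383, 216 and 26.1 at P14, and 456, 992 and 237 at P28. Unlike Ttr, Clic6 was higher in P28 replicate 3 (237) than in P7 replicates 1 (221) and 3 (195).

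Aqp1 departed from Ttr with age. Aqp1 (chr6:55336432-55348555, plus strand) encodes the water channel of the apical membrane. It had 12.9, 22.1 and 37.1 at P1 and 119, 246 and 112 at P7, but 77.3, 43.4 and 0 at P14 and 0, 23.6 and 0 at P28. All P14 libraries were below all P7 libraries, as in 24.8% of the genes tested, and the P28 libraries with the 2nd highest and the lowest Ttr of that age had no Aqp1 read. With 3 reads as the limit that a count of 0 allows at 95% confidence, such zeros allow up to 3.26 normalized counts in P14 replicate 3, and 4.38 and 4.06 in P28 replicates 1 and 3. These limits cover counting error only.

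Prr32 and Otx2 mark the extremes of the group. Prr32 (chrX:45090904-45092791, plus strand) encodes a proline-rich protein. It had no read in any P1 library, and 146, 170.1 and 92.2 at P7. Against the limit of 3 reads per library, its P7 mean was at least 65.2-fold higher than at P1. It then had 259, 103 and 2.17 at P14 and 728, 277 and 1.35 at P28, the values in replicate 3 of P14 and of P28 being 2 reads and 1 read. Otx2 (chr14:48657677-48673819, minus strand) was highest at P1, with 803, 2041 and 875, and had 726, 1095 and 567 at P7, 1084, 496 and 434 at P14, and 194, 374 and 184 at P28. It was the only member whose P14 replicate 3 was close to another P14 library. Exons of Otx2 overlap the antisense RNA Otx2os1, which had 0 to 44.3 normalized counts.

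Per kilobase of annotated exon, Ttr stood far above the rest at P7, with a mean level of 65504 ± 35647 normalized counts per kilobase (SD, n = 3). Otx2 followed with 189 and then Prr32 with 123, Kcne2 with 115, Slc4a5 with 110.0, Folr1 with 104, Clic6 with 71.4, Aqp1 with 60.6, Kl with 36.6 and F5 with 32.3. At P28 the order after Ttr was Prr32, Kcne2, Clic6, F5, Slc4a5, Folr1, Kl, Otx2 and Aqp1, but the SD there exceeded the mean for Prr32, F5, Slc4a5 and Aqp1. Neighbours in these orders differed by less than the larger of their SDs, apart from Ttr at both ages, Otx2 and Prr32 at P7, and Otx2 and Aqp1 at P28.

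The promoters of the members were read because most of the genes were low in the same libraries. Windows of 250 bases before a RefSeq start (GRCm38.p6) were found for 7 of the 9 members beside Ttr, 11 windows in all, and were searched on both strands for TAATCC, the core bound by OTX factors, for GTAAACA, the core bound by forkhead factors, and for the TATA box TATAAA. Matches of TATAAA on opposite strands can overlap each other, and a window was counted once per motif. TAATCC occurred in 1 window, which belonged to Otx2, against 6.25% of all 32851 windows of this length. GTAAACA occurred in none of the 11 windows, against 3.17%, and TATAAA in 1 window each of Slc4a5 and Otx2, against 12.4%. A match is a description of letters and not a binding site, and these counts say nothing about other positions. The windows of Prr32 and Kcne2, which had the fewest counts at P1, and of Aqp1, which was at 0 in 3 libraries after P7, are shown 5′ to 3′ on the plus strand, and no base is in capitals because none of the 3 motifs occurs in them. Their GC content was 40.4%, 52.4% and 62.0%.
Prr32, chrX:45090654-45090903: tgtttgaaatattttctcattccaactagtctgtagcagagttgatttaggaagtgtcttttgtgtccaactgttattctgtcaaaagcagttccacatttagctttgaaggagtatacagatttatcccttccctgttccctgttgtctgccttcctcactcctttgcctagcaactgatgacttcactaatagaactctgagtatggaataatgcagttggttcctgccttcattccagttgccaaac
Kcne2, chr16:92292139-92292388: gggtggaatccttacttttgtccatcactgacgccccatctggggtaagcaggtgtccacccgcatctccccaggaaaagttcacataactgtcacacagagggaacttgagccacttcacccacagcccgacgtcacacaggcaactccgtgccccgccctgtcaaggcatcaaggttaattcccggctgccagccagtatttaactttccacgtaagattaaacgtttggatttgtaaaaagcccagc
Aqp1, chr6:55336049-55336298: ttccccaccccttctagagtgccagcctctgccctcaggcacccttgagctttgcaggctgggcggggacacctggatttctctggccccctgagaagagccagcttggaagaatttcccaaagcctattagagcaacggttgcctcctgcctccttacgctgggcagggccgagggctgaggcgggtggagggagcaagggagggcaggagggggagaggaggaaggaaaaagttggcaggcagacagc

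From P1 to P7, the level of every member but Otx2 was higher. The log2 fold change on log2(normalized count + 1) was 7.65 ± 1.35 (SE) for Ttr, 7.05 for Prr32, 5.67 for Kcne2, 4.16 for Slc4a5, 3.86 for Clic6, 3.17 for Folr1, 2.94 for F5, 2.70 for Aqp1 and 2.66 for Kl, and -0.56 ± 0.42 for Otx2. This scale understates the change of genes with few reads. In 7 of the 8 members beside Ttr and Prr32 all P7 libraries were above all P1 libraries, beside 20.1% of the genes tested. No p-value is given for this step, since the rise of Ttr and Prr32 in it was known when the members were chosen. The median over these 8 members was 3.05, and that over all genes 0.037.

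From P7 to P14, no member passed the test, which asked for a Benjamini-Hochberg adjusted p under 0.05 over all genes from limma and a log2 fold change over 0.75. Of all genes, 18.8% passed it. The estimates were below 0 for all 10 members, from -3.31 ± 1.49 for Aqp1 (adjusted p = 0.139) to -0.28 ± 1.07 for Kl (adjusted p = 0.897), and that of Ttr was -2.02 ± 1.35 (adjusted p = 0.339). Aqp1 had the only unadjusted p under 0.05, at 0.0424. edgeR and DESeq2 also called 0 members, with smaller estimates of -0.41 and -0.45 for Ttr, -0.57 and -0.60 for Slc4a5 (-2.70 in limma), and a median over the members of -0.40 and -0.44. In both tools the estimates of Kl (0.32 and 0.29) and F5 (0.36 and 0.32) were above 0. In limma the direction of 6 members rested on P14 replicate 3. Without it the estimates of Ttr (0.21), Prr32 (0.31), Kl (0.89), Clic6 (0.13), Slc4a5 (0.038) and F5 (0.88) were above 0, and the median over the members went from -1.70 to 0.084.

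From P14 to P28, Otx2 was the only member to pass the test and it fell by 1.37 ± 0.42 on the log2 scale (adjusted p = 0.0434). Of all genes, 13.1% passed and 8.53% fell. All P28 libraries of Otx2 were below all P14 libraries, as were those of 14.5% of the genes tested. The call was lost in 9 of the 12 fits that leave out 1 library (adjusted p between 0.0212 and 0.178), all but those without replicate 2 of P1, of P7 or of P28, and the estimate stayed between -1.70 and -0.96. The other estimates were 1.97 ± 1.35 for Ttr (adjusted p = 0.355), 1.86 ± 0.84 for Clic6 (0.155), 1.84 for Slc4a5, 1.61 for F5, 1.53 for Kcne2, 1.23 for Folr1, 0.98 for Kl, 0.83 for Prr32 and -2.38 ± 1.49 for Aqp1 (adjusted p = 0.306). Without P14 replicate 3, Aqp1 passed the test (-4.34; adjusted p = 0.0472) and Otx2 did not (adjusted p = 0.0539), and the estimates turned to -0.26 for Ttr, -1.07 for Prr32, -0.56 for Folr1, -0.19 for Kl, -0.43 for Kcne2 and -0.90 for Slc4a5. Without replicate 3 of both P14 and P28, 8 members were again above 0, with a median of 0.89.

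The spread between libraries of one age differed among the members. The residual SD around the age means, in log2 units, was 2.79 for Prr32, 2.66 for Slc4a5, 2.47 for Kcne2, 2.22 for Aqp1, 2.20 for Ttr, 1.95 for Folr1, 1.70 for Kl, 1.59 for F5, 1.27 for Clic6 and 0.63 for Otx2. That of Clic6 exceeded 85.02% of the genes tested and that of Otx2 57.3%. Among only the genes nearest to each in level, the shares were 95% for Clic6 and 96.4% for Otx2. The spread of Otx2 was thus the smallest of the members but high for a gene of its level. The spread of Ttr was among the values that chose the members and is only described.

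Whether the other 9 members followed Ttr was examined within ages, so that the rise after P1 could not make the relation. For each gene, a slope on log2 Ttr was fitted beside the 4 age means, in one limma fit over 15463 genes. A slope of 1 means that a gene doubles when Ttr doubles. Slc4a5 and Folr1 passed the test (adjusted p under 0.05, slope above 0), 2 of the 9 members, against 0.0582% of all genes (9 genes, and 0 with a slope below 0). The others that passed were Sostdc1, Tmem72 and Prlr of a choroid plexus list given below, and Wfikkn2, 4932438H23Rik, Cish and Tut1 outside the lists. Of these last genes, Tut1 had 1.09 normalized counts in P14 replicate 3 and the rest had 0. Slc4a5 had the smallest p of all genes, with a slope of 1.20 (95% interval 1.03 to 1.36; adjusted p = 1.08e-05), and Folr1 had 0.83 (0.58 to 1.08; adjusted p = 0.0279). Ranked by their deviations from the age means, the 12 libraries had the same order for Slc4a5 as for Ttr. The 95% interval was above 0 for 8 of the 9 members, against 4.43% of all genes. Prr32 had a slope of 1.05 (0.57 to 1.54), Kcne2 of 0.94, Aqp1 of 0.84, F5 of 0.64 (adjusted p = 0.0748), Kl of 0.59 and Clic6 of 0.48. For Otx2 it was 0.14, with an interval from -0.025 to 0.31. The interval included 1 for 4 members and lay below 1 for another 4, so some members changed by less than Ttr. The slope of Aqp1 was 1.34 with 0.1 in place of 1 added before the logarithm, 0.39 with 10, and 1.11 in edgeR. With 10 added, Slc4a5 had 0.91, Prr32 0.73, Kcne2 0.71 and Folr1 0.65. The slopes of F5 (0.60), Kl (0.57) and Clic6 (0.45) then moved little.

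**Figure D2:**
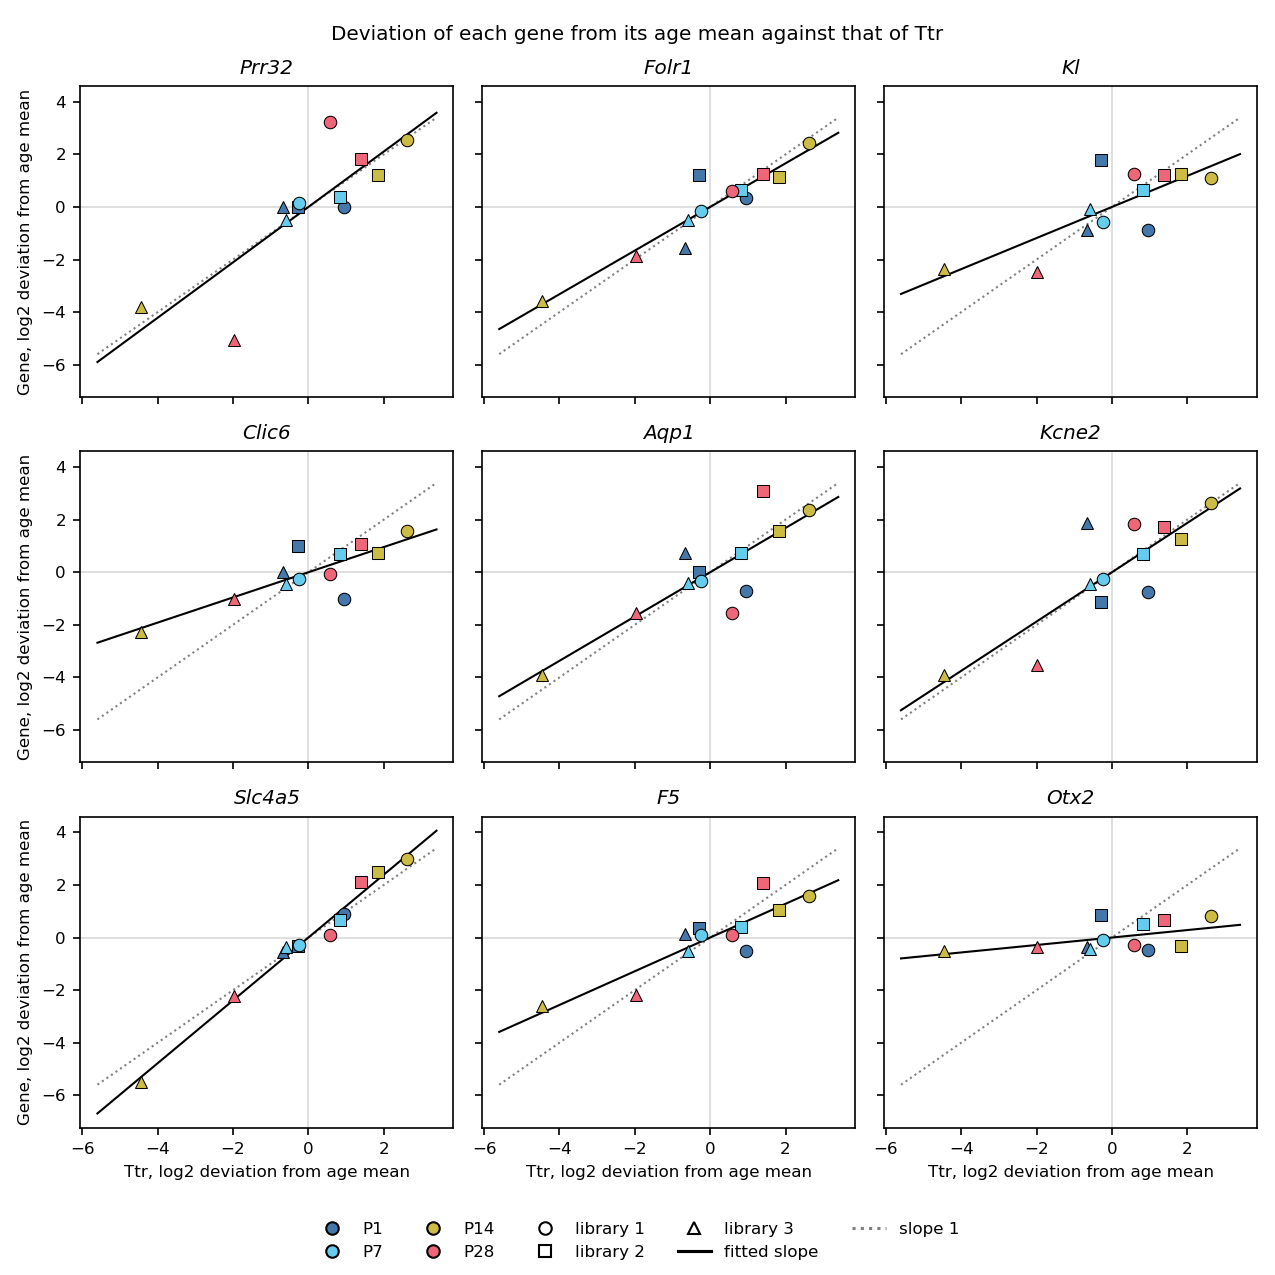
Each panel sets a gene's log2 deviation from its age mean (vertical axis) against that of Ttr (horizontal axis) in the 12 libraries; the solid line is the fitted slope and the dotted line a slope of 1. P14 replicate 3 and P28 replicate 3 lie at the lower left, Slc4a5 runs close to its line of slope 1.20 throughout, and Otx2 is nearly flat at 0.14.

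Most of the slopes moved without the low libraries. That of Prr32 was 1.72 without P14 replicate 3, outside the interval given above, and without replicate 3 of both P14 and P28 it was 0.17, with 0.30 for F5, 0.12 for Clic6 and 0.60 for Aqp1. In that fit Folr1 had a slope of 0.84 (limma, unadjusted p = 0.0564 and adjusted p = 0.999) and Otx2 had 0.33. Without P14 replicate 3, the slope of Slc4a5 was 1.08 (adjusted p = 0.0556) and that of Folr1 0.91 (adjusted p = 0.131), and 0 members passed, although 6 still had an unadjusted p under 0.05, against 9.39% of all genes with a slope above 0. Without replicate 3 of both P14 and P28, 0 members passed and 7 slopes were above 0. Slc4a5, with 1.00, was then the only member with an unadjusted p under 0.05 (0.00107; adjusted p = 0.999), against 1.17% of all genes, and Kl (-0.034) and Kcne2 (-0.080) were below 0. Folr1 also lost its call without any one of P7 replicates 1, 2 and 3, P14 replicates 1 and 2 and P28 replicate 3, with adjusted p between 0.0558 and 0.220, while its slope stayed between 0.79 and 0.91 in all 12 such fits.

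As correlations of the deviations from the age means over 12 libraries, Pearson's r with Ttr was 0.991 for Slc4a5 (rho 1; exact permutation within ages, p = 0.000772, the smallest that the 1296 permutations can give), 0.939 for Folr1 (rho 0.860; exact permutation p = 0.00694), 0.886 for F5 and 0.832 for Prr32. The lowest were 0.768 for Kl and 0.493 for Otx2 (exact permutation p = 0.194). The exact permutation p was under 0.05 for 6 of the 9 members, against 3.34% of all genes with r above 0. With so few permutations, adjustment over 15463 genes could hardly pass any gene, so no adjusted count is read (smallest adjusted p 0.702). In 8 of the 9 members r was above 0.7, against 3.28% of all genes. P14 replicates 3 and 1 were the libraries whose Ttr deviated most from its age mean. Without them, r was 0.970 for Slc4a5, 0.831 for Folr1, 0.785 for F5, 0.775 for Prr32, 0.678 for Kl, 0.668 for Kcne2, 0.596 for Aqp1, 0.536 for Clic6 and 0.229 for Otx2. The age means were still those of all 12 libraries, so the deviations of P14 replicate 2 still held P14 replicate 3. These r are therefore no check of the relation without P14 replicate 3. Because Ttr falls into a low and a high cluster of libraries, no r over the raw levels of all 12 is given. Over the 8 libraries with more than 10000 normalized counts of Ttr, which span P7 to P28, r was 0.959 for Folr1, 0.947 for Kcne2, 0.916 for Slc4a5, 0.879 for Kl, 0.879 for Prr32, 0.848 for F5 and 0.767 for Clic6, but 0.414 for Otx2 and 0.380 for Aqp1. These values are pooled over 3 ages and still hold P28 replicate 3, the lowest of the 8 in Ttr. Over the 7 libraries without it, r was 0.890 for Folr1, 0.870 for Kcne2, 0.749 for Slc4a5, 0.726 for Kl, 0.622 for Prr32, 0.845 for F5, 0.961 for Clic6, -0.081 for Otx2 and -0.24 for Aqp1.

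A broader list of 23 genes known for selective expression in the choroid plexus, fixed beside the members and holding none of them, was set beside them. Of its 21 genes tested, 19 had a slope on Ttr above 0 and 3 passed the test; the other 2, Slco1a5 and Otx2os1, are named after their values were seen. The median slope was 0.55, beside a median over all genes of 0.00031, and 50.1% of all genes had a slope above 0. The 3 were Sostdc1, a secreted antagonist of bone morphogenetic protein and Wnt signals (1.15; adjusted p = 0.0149), Tmem72, a transmembrane protein (1.17; adjusted p = 0.0217), and Prlr, the prolactin receptor (0.69; adjusted p = 0.0293). Sostdc1 had 7.57 to 15.7 normalized counts at P1, 279, 421 and 167 at P7, 380.2, 193 and 1.09 at P14, and 171, 590 and 5.41 at P28. Tmem72 had 0 to 1.23 at P1, 69.0 to 243 at P7, 136, 166 and 0 at P14, and 110, 104 and 1.35 at P28. Both genes were thus nearly absent from the low libraries and from P1. Without P14 replicate 3, or without any one of the P7 libraries or P14 replicates 1 and 2, 0 genes of this list passed. Without P14 replicate 3, 20 of its slopes were above 0 with a median of 0.73, and without replicate 3 of both P14 and P28, 19 were, with a median of 0.50 and 0 genes past the test.

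Among the 8 most abundant genes of that list, Kcnj13, a potassium channel of the epithelium (slope 0.59; adjusted p = 0.0744), Car12, a carbonic anhydrase (0.55; adjusted p = 0.0854), 1500015O10Rik (0.53; adjusted p = 0.0822) and Col8a1, a collagen (0.61; adjusted p = 0.120), had 95% intervals above 0. Kcnj13 had 275, 656 and 377 at P7, 665, 305 and 34.8 at P14, and 307, 645 and 63.6 at P28. By contrast Slc13a4, a sulfate transporter and the list's most abundant gene (0.13; -0.037 to 0.29), Ace, which cleaves angiotensin I (0.16; -0.045 to 0.36), and Rdh5, a retinol dehydrogenase (0.14; -0.047 to 0.33), had intervals that include 0. Rdh5 was highest in P28 replicate 3, with 737 against 386 and 442, and was the only gene of this list to pass the test upward from P14 to P28 (1.86 ± 0.47; adjusted p = 0.0172). In that step 1 gene of the list passed downward. Of all 15464 genes tested, 708 passed upward and 1319 (8.53%) downward. The list's summed level was 5997, 4393 and 1032 at P14 and 6695, 8570.0 and 2638 at P28, and 7 of its 23 genes were at 0 in replicate 3 of each age, against 1 to 3 in the other libraries of these ages.

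**Figure D3:**
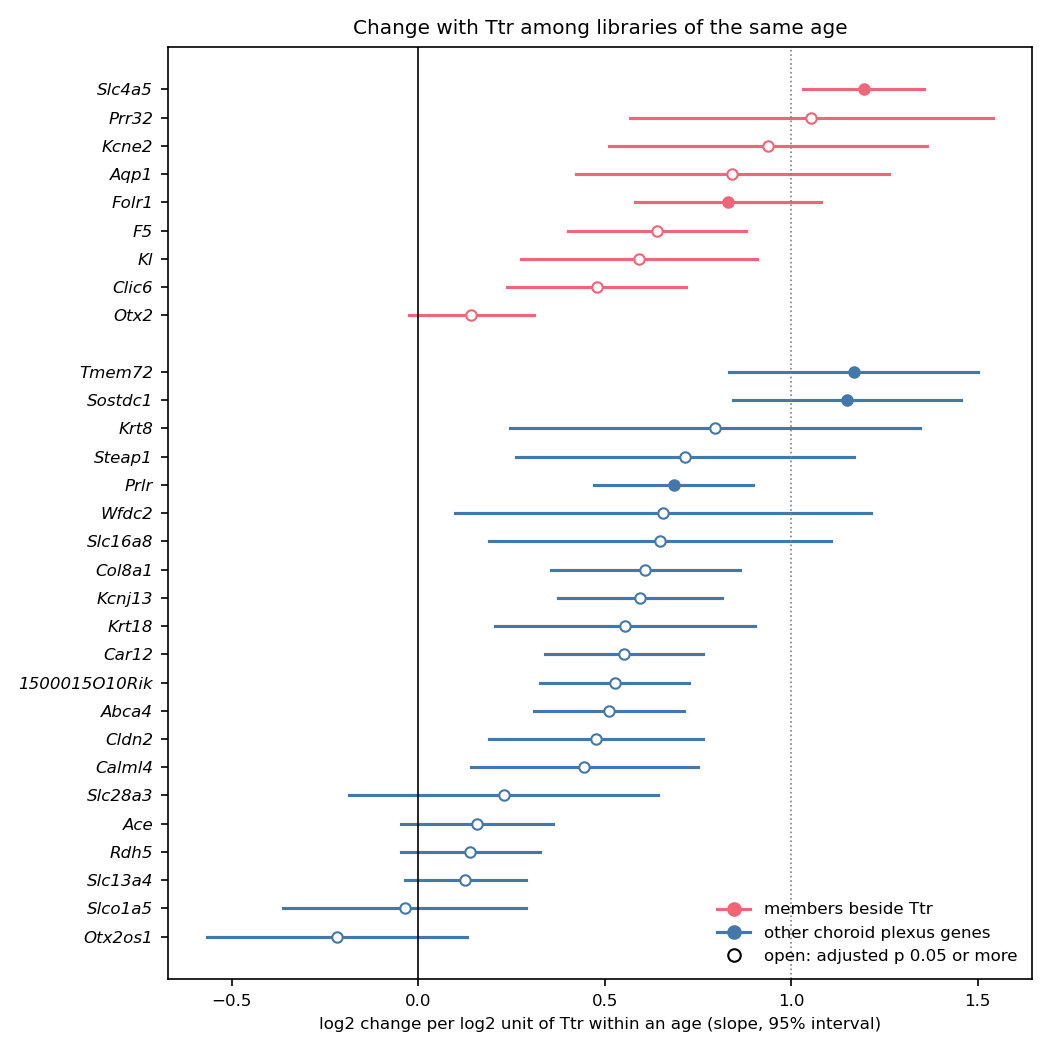
Slope on log2 Ttr within ages (horizontal axis, log2 change per log2 unit of Ttr) with its 95% interval for the 9 members beside Ttr (red) and the 21 tested genes of the selective choroid plexus list (blue); filled points have an adjusted p under 0.05. Slopes run from 0.14 (Otx2) to 1.20 (Slc4a5) among the members, and only Slco1a5 and Otx2os1 of the list lie below 0.

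A further list held 23 genes that the choroid plexus shares with other cells. Of these, 20 had a slope above 0, against 50.1% of all genes, with a median of 0.18, and 0 passed the test. An unadjusted limma p under 0.05 with a slope above 0 was found for 9, against 4.43% of all genes. Its most abundant gene, Enpp2, encodes autotaxin and is also made by oligodendrocytes. Enpp2 had 33250 and 31041 normalized counts in P14 replicates 1 and 2 and 9086 in replicate 3, and 30876, 39635 and 4563 at P28 (slope 0.38; adjusted p = 0.232). Igf2, which the vascular and meningeal cells also make, had a slope of -0.0079 and 14878, 10654 and 13841 at P14. Of 15 genes of fluid secretion and ion transport, 10 had a slope above 0 with a median of 0.055. Binding partners of the members, 14 tested of 17, had a median slope of 0.0032, and for Fgfr1, a receptor that klotho binds, it was 0.050 (adjusted p = 0.803). Each of these lists had 0 genes past the test. Without P14 replicate 3 the 3 medians were 0.46, 0.25 and 0.064, and without replicate 3 of both P14 and P28 they were 0.21, 0.14 and 0.22, again with 0 genes past the test.

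Other cell types were followed through their marker lists in the same libraries. The astrocyte list was never at 0 for any of its 11 genes. Its summed level was 173349, 195721 and 154190 at P14 and 357809, 372220 and 418898 at P28, so that P14 replicate 3 had 154190 where Ttr was at 796. The most abundant astrocyte gene was Slc1a3, a glutamate transporter, with 56504, 72149 and 50270 at P14. Aldh1l1 itself had 1834, 1978 and 1824 at P14 and 2451, 3338 and 2974 at P28. The median slope on Ttr was 0.016 for the astrocyte list, 0.016 for the endothelial, 0.059 for the meningeal fibroblast, -0.059 for the macrophage and microglia, 0.061 for the oligodendrocyte and 0.15 for the ependymal list, with 0 genes past the test in each. Several of these medians rested on the low libraries. Without P14 replicate 3 they were, in the same order, -0.083, 0.015, 0.075, 0.28, 0.14 and 0.32, and without replicate 3 of both P14 and P28 they were -0.091, 0.26, 0.095, 0.29, 0.088 and 0.15, with 0 genes past the test in either fit. Abundant genes of these lists had slopes of -0.015 for Slc1a2, a glutamate transporter of astrocytes, 0.064 for Cdh5, the cadherin of endothelial junctions, 0.065 for Apod and 0.13 for Col1a1 of fibroblasts, 0.054 for Csf1r and -0.062 for P2ry12 of microglia, and -0.070 for Mbp of myelin. Ependymal cells line the ventricles beside the choroid plexus. Of 19 ependymal genes tested, 14 had a slope above 0, against 50.1% of all genes. An unadjusted limma p under 0.05 with a slope above 0 was found for 5 of them, against 4.43% of all genes. The list's most abundant genes, Cfap44 and Dnah6 of the motile cilium, had slopes of 0.085 and 0.17. The list summed to 3687, 1656 and 1770.1 at P14, where replicates 2 and 3 were alike although their Ttr differed, and to 3113, 3358 and 1336 at P28, with 4 genes at 0 in replicate 3.

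P7 replicate 2, with the highest Ttr of P7, also differed in other lists. Its endothelial sum was 11009 against 2806 and 1782 in replicates 1 and 3, with Flt1, a receptor for vascular endothelial growth factor, at 1492 against 379 and 241. Its astrocyte sum was 27424 against 51353 and 47928. Markers of the liver were at or near 0. The list of 8 liver genes summed to at most 22.2 normalized counts in any library, and to 0 in P28 replicate 3. Of the red blood cell list, Alas2, which makes heme, was highest, at 2.92 to 118, and 4 to 6 of its 7 genes were listed at 0 in each library. The globin genes Hbb-bs, Hbb-bt, Hba-a1 and Hba-a2 were at 0 in every library. Whether the table counted globin reads at all was not tested, so these zeros are not read as absence of blood. Summed levels of the choroid plexus lists were highest at P7 in that library as well, at 5766 for the selective list against 3030.4 and 2962. The part of the endothelial, astrocyte and ependymal differences in these results was not tested.

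**Figure D4:**
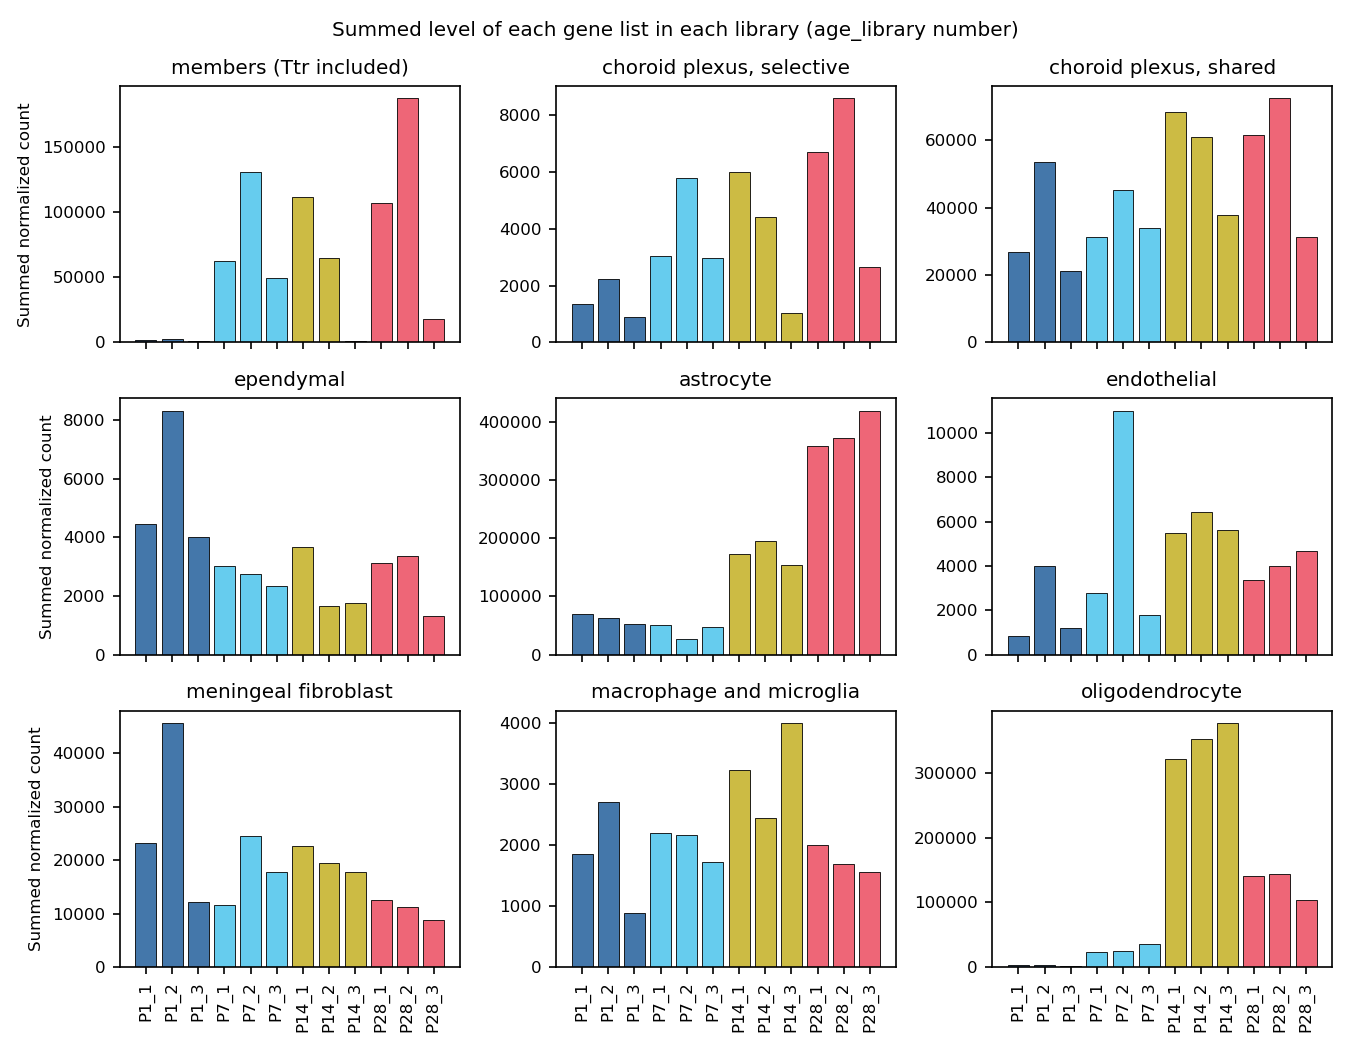
Summed normalized count (vertical axis, from 0) of 9 gene lists in each of the 12 libraries (horizontal axis, age and replicate number). The member and choroid plexus sums drop in P14 and P28 replicate 3 (1032 and 2638 for the selective list), where the astrocyte sums are 154190 and 418898.

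Levels relative to Ttr changed with age for some genes. In the 8 libraries with more than 10000 Ttr, Aqp1 had between 1.95 and 2.39 normalized counts per 1000 of Ttr at P7. The corresponding range was 0.696 to 0.720 at P14, and at P28 it was 0 to 0.131. The ages did not overlap, with only 2 of these libraries at P14. The share of all genes whose ratio to Ttr separated the ages was not computed, so the separation of Aqp1, and of Prlr below, is only described. Prlr went the other way, with 0.362 to 0.650 at P7, between 3.19 and 3.94 at P14, and between 7.88 and 10.98 at P28, again without overlap. F5 had 2.45 to 4.14, 4.83 to 5.65 and 5.52 to 12.4 per 1000 at the 3 ages, and Folr1 had 2.81 to 3.38, 2.27 to 3.25 and 2.02 to 2.34. Slc4a5 ranged from 7.56 to 9.99 at P7, from 6.84 to 8.40 at P14 and from 3.50 to 8.06 at P28. In a fit of all 12 libraries with Ttr as a covariate beside the ages, chosen after seeing these values, Aqp1 fell from P14 to P28 by 4.04 ± 1.06 on the log2 scale (adjusted p = 0.0287) and Otx2 by 1.65 ± 0.42 (adjusted p = 0.0259), 2 of 9 members, against 10.8% of all genes. Both passed without P14 replicate 3 (adjusted p = 0.0351 and 0.0457), and neither did without replicate 3 of both P14 and P28, where the estimates were -4.01 (adjusted p = 0.0974) and -1.68 (adjusted p = 0.0945). Prlr rose from P7 to P14 by 3.00 ± 0.54 (adjusted p = 0.00181), where 17.3% of all genes passed and 0 members did, and it passed in both fits without the low libraries (adjusted p = 0.00229 and 0.00276). It was the only 1 of the 21 tested genes of the selective list to pass this step at equal Ttr, and it was singled out after its ratios to Ttr were seen. Without the covariate, its step from P7 to P14 was 1.61 ± 1.05 (limma, adjusted p = 0.323), with P14 replicate 3 (11.9) below every P7 library. For the later step of Prlr at equal Ttr, the estimate was 1.25 ± 0.54 (adjusted p = 0.146). In that step 3 of the 21 passed with all 12 libraries, Rdh5 upward (1.59) and Otx2os1 (-3.02) and Slc16a8, a monocarboxylate transporter (-3.88), downward, the last pair named after their values were seen, and 0 passed in either fit without the low libraries.

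**Figure D5:**
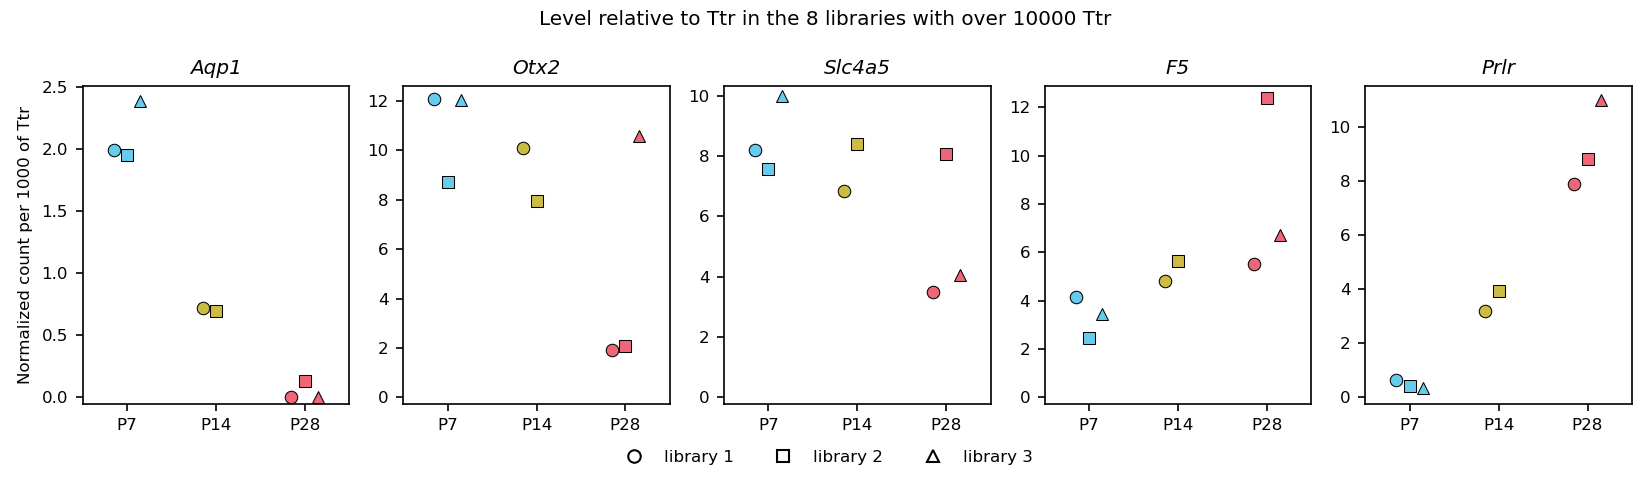
Normalized count per 1000 of Ttr (vertical axis, from 0, scaled per gene) of Aqp1, Otx2, Slc4a5, F5 and Prlr in the 8 libraries with more than 10000 Ttr, by age; symbols mark the replicate number. Aqp1 lies between 1.95 and 2.39 at P7 and at most at 0.131 at P28, and Prlr at most at 0.650 and at least at 7.88, while the ages overlap for Slc4a5.

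The 10 genes outside the members with the highest within-age r with Ttr, among those with a slope of at least 0.5 and a mean of at least 10, were Slc39a4, Prlr, Slc25a13, Tmem72, Tut1, Sostdc1, Wfikkn2, Nhs, Cish and 4932438H23Rik, with r from 0.919 to 0.968 over the 12 libraries. The selective list holds 3 of them. Slc39a4, a zinc importer, had 64.6, 27.5 and 0 at P14 and 4.38, 23.6 and 1.35 at P28. Cish, an inhibitor of cytokine signalling, was at 99.96 to 124 at P1 and 147 to 211 at P7, where the ages did not overlap, had 90.02, 134 and 0 at P14, and 30.7, 27.1 and 0 at P28. Tut1, a nucleotidyltransferase, was at 71.2 to 122 at P1 and 88.4 to 113 at P7, where the ages overlapped, and had 66.7, 88.9 and 1.09 at P14.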

How the data were processed

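RNA of GFP-sorted cerebellar cells was made into libraries with the Trio kit. The authors aligned reads to mm10 with STAR (2.5.0a per the labels), counted them on UCSC transcripts with GenomicAlignments and normalized them with DESeq2 (1.30.1 per the labels). The deposited signal is read counts divided by a size factor that each library has of its own. Dividing by the value of 1 read gave whole reads for 100% of values (tolerance 0.001). All column names carry P28, and ages rest on the labels. The table has 27 symbols turned into dates.

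limma (3.58.1, R 4.3.3) was run on log2(value + 1) with a mean per age and a variance trend, over the 15464 genes that reached 10 in 3 or more libraries. Coordinates come from GENCODE M21 on GRCm38, matched by symbol for 23358 entries, and promoters from RefSeq. P-values were adjusted by Benjamini-Hochberg over all genes. edgeR (4.0.16) and DESeq2 (1.42.0) on recovered reads were alternatives, beside other pseudocounts, no filter, scaling by totals, a replicate block, the exact permutation test and each library left out. Correlations used scipy 1.17.1. The limma and edgeR fits were checked on simulated counts with known changes. Counts were drawn independently for each gene around set means, with the same dispersion for all. The check therefore does not cover a library that shifts many unchanged genes together. No pair of libraries of one age agreed within sampling noise.

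The members, lists and tests were chosen with earlier results of these data known. Named genes are the members, the 8 most abundant tested genes of the selective list, the 2 most abundant of each other list, the 10 genes most like Ttr, and Aldh1l1; a few of them are not reported here.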

Additional observations from a re-analysis of the deposited data

How the results depend on the processing

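The median step of all 10 members from P1 to P7 (3.52, Ttr and Prr32 included) ranged from 3.18 to 3.88 with 1 library left out. From P7 to P14 the count of members called was 0, and 1 with a pseudocount of 10 or at the unadjusted p; with 1 library left out it was 0 in all 12 fits. From P14 to P28 it was 1, but 0 without a filter on low values, without replicate 3 of both P14 and P28 or in a fit of the 6 libraries compared, 2 with Ttr as a covariate (2 without P14 replicate 3 and 0 without replicate 3 of both P14 and P28) and 2 at the unadjusted p, and 0 to 1 with 1 library left out, where without P14 replicate 3 the 1 was Aqp1 in place of Otx2. The count of members past the slope test on Ttr was 2, and became 0 without replicate 3 of both P14 and P28, 0 by exact permutation (a count that its 1296 permutations all but fix), 1 with edgeR, 5 without the P1 libraries and 8 at the unadjusted p; with no age term it was 7, from which nothing is read, since that slope holds the rise from P1 to P7 for which Ttr and Prr32 were chosen; with 1 library left out it lay between 0 and 4. For the selective list the count of 3 became 0 without replicate 3 of both P14 and P28, 6 without the P1 libraries, 5 with no age term and 15 at the unadjusted p, and lay between 0 and 6 with 1 library left out. The count over all genes was 9, 10 with a pseudocount of 0.1, 4 with 10, 5 with no filter, 3 with edgeR, 15 with no age term and 12 without P1.

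With the replicate block, 1 member (Slc4a5) and 0 genes of the selective list passed the slope test (1 gene of all); the block changed no other call of the members. Pairs of libraries from different ages with the same replicate number had an r of their deviations from -0.029 to 0.139 (18 pairs, median 0.031, 1 over 0.1). Pairs with different numbers had -0.105 to 0.054 (36 pairs, median -0.011, 0 over 0.1). In every age Ttr was lowest in replicate 3, while its highest library was replicate 1 or 2. Whether libraries with the same number were handled together was not tested.

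Directions turned for the steps from P7 to P14 without replicate 3 of both P14 and P28 (Ttr 0.21, Prr32 0.31, Kl 0.89, Clic6 0.13, Slc4a5 0.038, F5 0.88), with edgeR (Kl 0.32, F5 0.36), with DESeq2 (Kl 0.29, F5 0.32) and with Ttr as a covariate (Prr32 0.54, Kl 0.91, F5 0.86; without P14 replicate 3 Kl 0.73, Clic6 0.053, F5 0.71; without replicate 3 of both P14 and P28 Prr32 0.27, Kl 0.90, Clic6 0.10, F5 0.82). From P14 to P28, Ttr as a covariate turned Prr32 (-1.25), Folr1 (-0.40), Kl (-0.18), Kcne2 (-0.32) and Slc4a5 (-0.51), the covariate without P14 replicate 3 turned Prr32 (-0.63), Folr1 (-0.33), Kcne2 (-0.13) and Slc4a5 (-0.62), and that without replicate 3 of both P14 and P28 turned Folr1 (-0.24) and Slc4a5 (-0.51). Slopes turned without replicate 3 of both P14 and P28 for Kl (-0.034) and Kcne2 (-0.080), and with no age term for Otx2 (-0.10). With 1 library left out, the step from P7 to P14 ranged from -3.33 to 0.21 for Ttr, -2.87 to 0.31 for Prr32, -0.90 to 0.89 for Kl, -1.78 to 0.13 for Clic6, -4.19 to 0.038 for Slc4a5 and -1.22 to 0.88 for F5, and that from P14 to P28 from -0.26 to 3.28 for Ttr, -1.07 to 3.35 for Prr32, -0.56 to 2.46 for Folr1, -0.19 to 2.22 for Kl, -0.43 to 3.30 for Kcne2 and -0.90 to 3.33 for Slc4a5. The cause was not tested. With 3 libraries an age, and 1 read worth 0.615 to 1.46 normalized counts, the SEs of the members' steps were 0.42 to 1.80, and smaller steps could not be told from the spread.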
